A study of Homo sapiens with 24 samples.

Results

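LUHMES aggregates that had been exposed to 100 nM rotenone for 24 h were compared with aggregates exposed to 50 nM for the same time. The members were chosen by the sample titles and comprised 6 of the 24 arrays of the series, 3 for each dose, all collected on day 8 of differentiation. LUHMES is a human mesencephalic line, immortalized by a tetracycline-controlled v-myc gene, which differentiates into dopaminergic neurons and was grown here as 3D aggregates on a shaker, in medium with cAMP, GDNF, tetracycline and N2. The arrays of the 2 doses were read against 3 arrays of day 8 aggregates that had received the solvent DMSO, in the amount that the 100 nM dose brings with it. Whether the 50 nM aggregates received as much DMSO was not stated. Exposure began on day 7, and a further 3 arrays of day 8, from aggregates given 50 nM for 12 h, were used to choose responding genes without the arrays of either 24 h group. The replicates were samples of 1 cell line, so that p-values measure the spread between samples within slides, pooled over all 24 arrays, which may be technical.

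Rotenone blocks complex I of the mitochondrial respiratory chain, which passes electrons from NADH to ubiquinone and pumps protons for ATP synthesis. A block of this step slows oxidation of NADH, shifts cells towards glycolysis and can raise the output of reactive oxygen species. Cells answer such stress through several transcriptional programs, among them the integrated stress response around ATF4, the oxidative stress response around NRF2 and the glucose-sensing pair MondoA and ChREBP, whose best-known target is TXNIP. The question of the comparison was whether the transcriptional answer after 24 h went further at 100 nM than at 50 nM, gene class by gene class.

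The arrays measured RNA as the intensity of a Cy3 label on 1-color Agilent arrays, and all values here are normalized log2 intensities, averaged over the probes of a gene. Between 50.93% and 68.57% of the spots of these 9 arrays were well above background. All 10 listed markers of neurons were above background on all 9 arrays, as were 7 of 10 markers of dopaminergic neurons, TH and the dopamine transporter gene SLC6A3 among them, while the vesicular monoamine transporter gene SLC18A2 was on none. Of the markers of astrocytes, GFAP and AQP4 were above background on no array, and of the 9 markers of microglia measured 0 were above background on all arrays. Of the 9 markers of oligodendrocytes measured, 5 were above background on all 9 arrays, namely CNP, MBP, MOG, OLIG1 and OLIG2. For each list of markers the intensities were summed and the sum put on the log2 scale, so that the brightest markers weighed most. This level of the neuron markers lay between 17.62 and 17.84 at 50 nM and between 17.68 and 17.82 at 100 nM, against 17.74 to 17.99 in DMSO. That of the progenitor markers lay between 14.21 and 14.67 at 50 nM and between 14.57 and 14.75 at 100 nM. In DMSO it lay between 14.09 and 14.39, so that this sum was higher on the 100 nM arrays than on any DMSO array. The median change over the 9 progenitor markers tested was -0.11 at 50 nM and 0.03 at 100 nM. Of these 9, 1 was called up at 50 nM and 2 were called down at 100 nM, so that they did not rise as a set. The summed level of the astrocyte markers lay between 9.39 and 9.46 in DMSO, between 9.61 and 10.12 at 50 nM and between 9.82 and 9.88 at 100 nM. This sum was higher with rotenone on all 6 arrays, but 3 of the 10 markers were above background on all 9 arrays. Among these 3, ALDOC, which is also in the glycolysis list, had means of 8.81 in DMSO, 9.40 at 50 nM and 9.45 at 100 nM. The median change over the 10 markers was 0.04 at 50 nM and -0.12 at 100 nM, so that they did not rise as a set. The summed level of the mesenchymal markers, 2 of 10 above background on all 9 arrays, lay between 7.89 and 8.07 in DMSO. It lay between 8.09 and 8.83 at 50 nM and between 7.98 and 8.27 at 100 nM. The part of cell composition in the results was not tested. Each slide held 1 array of each group, always at the same position, so that position on the slide and group cannot be told apart. In RNA of whole aggregates, fewer cells of a type and less RNA per cell cannot be told apart either.

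No gene was called between the doses. A gene was called at a fold change over 1.5 with an adjusted p under 0.05, the adjustment being that of Benjamini and Hochberg over all 21324 genes tested with limma, and 0 genes, or 0% of those tested, reached this between 100 nM and 50 nM. The smallest adjusted p was 0.99963. At an unadjusted p under 0.05, 452 genes (2.12% of those tested) were higher and 400 (1.88%) were lower at 100 nM, 852 in all, where a comparison without any change would give 1066.2. A p that misses the threshold does not show equal levels, and the interval of each difference was therefore computed. Its median half-width was 0.36 on the log2 scale, a fold of 1.28, over all genes and 0.26, a fold of 1.2, over the 13682 genes that had at least 1 well-measured probe on each of the 9 arrays. The whole 95% interval lay within a fold of 1.5 in either direction for 12691 genes (59.5% of those tested), and for 11378 (83.2%) of the genes above background. Of the 13752 genes above background on the 6 rotenone arrays, 35 differed by a fitted fold of more than 1.5 and 0 by more than 2. Tested probe by probe, 0 of 48646 probes were called and 1457 had an unadjusted p under 0.05. Over the other ways of processing, 0 genes were called except without 50 nM replicate 1, where IL17F, a T cell cytokine gene that was well above background on 1 of the 3 arrays at 100 nM, was called at -1.35 (adjusted p = 0.0033, limma).

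**Figure D1:**
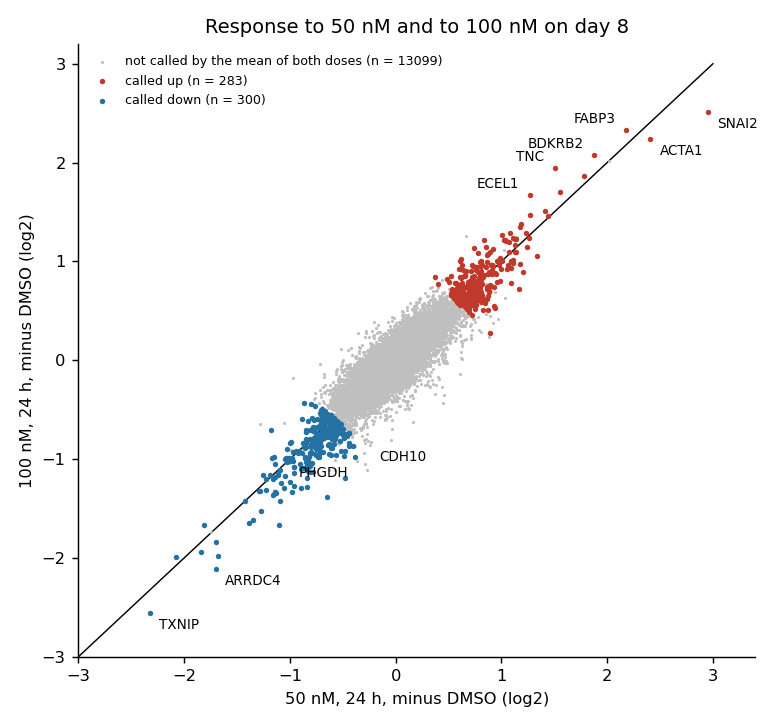
Change of each gene at 50 nM (x axis) and at 100 nM (y axis) against DMSO on day 8, in log2 units, for the 13682 genes above background on all 9 arrays. Red and blue points are the 283 genes called up and the 300 called down by the mean of both doses, and the line marks equal changes. Both axes subtract the same 3 DMSO arrays, so that the spread along the line is in part shared error.

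Each dose on its own changed genes in both directions against DMSO. At 50 nM, 294 genes were called up (1.38%) and 309 down (1.45%). At 100 nM, 314 were called up (1.47%) and 418 down (1.96%). There were 296 genes called at 100 nM and not at 50 nM and 167 genes called at 50 nM and not at 100 nM, but a gene on this side of a threshold at 1 dose was not shown to differ between doses, since the direct test called 0. Both comparisons use the same DMSO arrays. When only the 6 arrays of the groups compared entered each fit, 0 genes were called at either dose. With the processed signal of the scanner software in place of the normalized median intensity, more of the calls were up than down, with 536 up and 349 down at 50 nM and 579 up and 447 down at 100 nM.

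To ask whether responding genes went further at 100 nM, genes were chosen by the mean of both doses against DMSO, which does not use the difference between the doses. This called 308 genes up (1.44%) and 358 down (1.68%), 666 in all. The median rise of the first list was 0.75 at 50 nM and 0.75 at 100 nM, and the median of the differences between doses was 0.02. Of the 308 genes, 172 (55.8%) were higher at 100 nM, beside 47.9% of all genes, and 15 were higher and 3 lower with an unadjusted p under 0.05, beside 2.12% and 1.88% of all genes. Within slides 1, 2 and 3 the median difference was 0.06, 0.003 and -0.01. For the genes called down the median change was -0.70 at 50 nM and -0.78 at 100 nM, with a median difference of -0.08. It was -0.13 on slide 1, -0.002 on slide 2 and -0.12 on slide 3, against -0.01 over all genes tested. Of the 358 genes, 255 (71.2%) were lower at 100 nM, beside 52.1% of all genes. An unadjusted p under 0.05 went with 26 lower and 3 higher genes, beside 1.88% and 2.12% of all genes. Of the members above background on all 9 arrays, the interval lay within a fold of 1.5 for 232 of 283 genes called up and 249 of 300 called down, shares close to the 83.2% of all genes above background. Among the strongest responders, with a mean change of more than 3-fold, the median difference was 0.14 for the 7 genes up and -0.12 for the 8 genes down. Without 50 nM replicate 2 the median of the genes called up was -0.02, and with all arrays kept and scaling to the 75th percentile it was also -0.02, so that its sign is not settled.

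The genes that 50 nM had already changed at 12 h gave a second list, chosen without the arrays of either 24 h dose. This comparison called 180 genes up (0.844%) and 210 down (0.985%). At 24 h the first group had a median rise of 0.68 at 50 nM and 0.70 at 100 nM, and the median of the differences was 0.08, with 0.12, 0.05 and 0.05 on the 3 slides. The second group changed by a median of -0.67 at 50 nM and -0.75 at 100 nM, with a median difference of -0.09 and -0.15, -0.01 and -0.12 on the slides. The median of the gene by gene differences thus pointed slightly away from DMSO in both directions, by a fold of about 1.05 to 1.06. For the genes that had gone down it did so on slides 1 and 3 more than on slide 2.

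**Figure D2:**
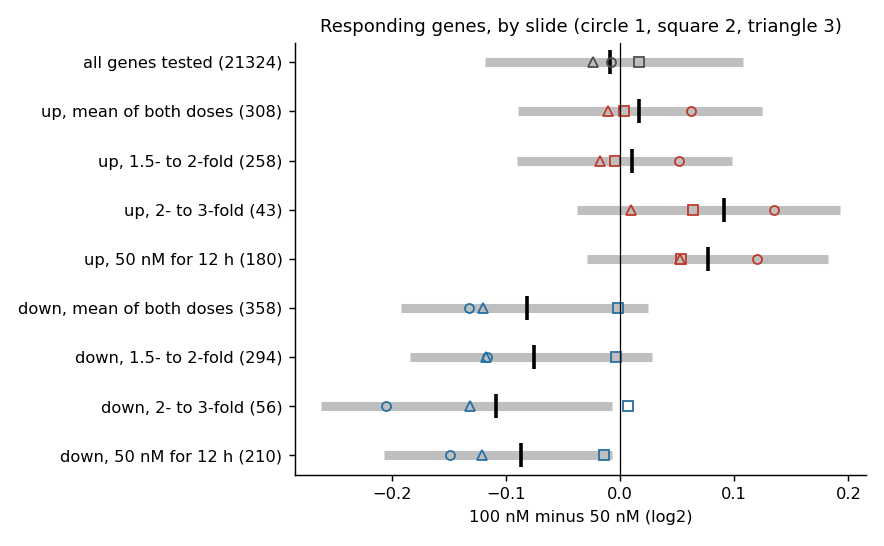
Difference of 100 nM minus 50 nM in log2 units (x axis) for lists of responding genes, with the number of genes in parentheses. The black tick is the median of the fitted differences, the gray bar spans the lower to the upper quartile, and open symbols are the medians within each slide. For the 4 lists of genes called down all but 1 of the slide medians lie below 0, and slide 2 lies closest to 0.

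The step from 50 to 100 nM was also set against the step from 0 to 50 nM in 1 test, added after the data were seen. For each gene the second step minus the first was fitted on the log2 scale, and it was called above 0 for 56 genes (0.263%) and below 0 for 48 (0.225%). In these genes the median size of the change was 0.90 at 50 nM and 0.86 at 100 nM, the median size of the second step was 0.10 and its largest 0.61. Of the 104, 88 were also called by the mean of both doses. The second step minus the first uses the 50 nM and DMSO arrays with weights opposite to those in the change from DMSO, so that error alone ties their signs together, and no direction is read from the 104 genes. The count also moved strongly with the processing, from 0 when only the day 8 arrays entered the fit to 302 with an offset of 50 in the background correction, and leaving out 1 array at a time gave 7 to 70.

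TXNIP had the largest mean fall of the 13682 genes above background on all 9 arrays. It encodes thioredoxin-interacting protein, an alpha-arrestin that binds thioredoxin and restrains glucose uptake. The DMSO arrays read 12.65, 12.42 and 12.19, the 50 nM arrays 10.10, 10.08 and 10.11, and the 100 nM arrays 9.71, 10.10 and 9.79 on the log2 scale. The rotenone arrays lay more than 2 units below those of DMSO, and the 2 doses overlapped only through slide 2. TXNIP fell by 2.33 at 50 nM (SE 0.14, adjusted p = 1.27e-07, limma) and fell by 2.56 at 100 nM (adjusted p = 4.86e-08), with a difference of -0.23 (95% interval -0.53 to 0.07). Its second step minus the first was 2.10. TXNIP was picked for its fall from the same DMSO arrays, so that nothing is read from this value.

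ARRDC4, which encodes a related alpha-arrestin that also limits glucose uptake, fell with it. Its DMSO arrays read 7.75, 7.94 and 7.78, its 50 nM arrays 5.80, 6.29 and 6.29, and its 100 nM arrays 5.23, 6.04 and 5.85. Within every slide the 100 nM array was the lower one, with differences of -0.57, -0.24 and -0.44. ARRDC4 fell by 1.70 at 50 nM (adjusted p = 3.93e-06, limma) and fell by 2.11 at 100 nM (adjusted p = 3.05e-07). The difference of -0.42 (95% interval -0.72 to -0.11) had an unadjusted p of 0.0099 and an adjusted p of at least 0.99963 over all genes, so that it was not called. ARRDC4 was the single member of the 10 glucose-sensing targets tested with an unadjusted p under 0.05, and the list's median difference was -0.18, with -0.05, 0.03 and -0.28 on the slides. Besides these, KLF10, a zinc finger factor, fell by 0.73 at 100 nM and had -0.50 at 50 nM, and MLXIP, which encodes MondoA itself, rose by 0.59 at 100 nM and had 0.40 at 50 nM.

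The promoters of these genes are shown because the glucose-sensing factors are known to act through E-boxes, often in spaced pairs, and because both genes fell at both doses. The windows hold 250 bases before and 50 after the start of the RefSeq gene in GRCh38.p14, TXNIP on the minus strand at chr1:145996530-145996829 and ARRDC4 on the plus strand at chr15:97960453-97960752. Capitals mark the spaced pair, which is 2 copies of CACGNG with 5 bases between them, the E-box CACGTG and the CCAAT box, each searched on both strands.
TXNIP: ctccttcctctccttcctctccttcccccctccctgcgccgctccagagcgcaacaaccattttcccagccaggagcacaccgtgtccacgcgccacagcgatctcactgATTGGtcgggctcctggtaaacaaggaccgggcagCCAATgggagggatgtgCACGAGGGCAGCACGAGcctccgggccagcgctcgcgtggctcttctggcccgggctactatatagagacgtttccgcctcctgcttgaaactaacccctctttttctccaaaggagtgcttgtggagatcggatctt
ARRDC4: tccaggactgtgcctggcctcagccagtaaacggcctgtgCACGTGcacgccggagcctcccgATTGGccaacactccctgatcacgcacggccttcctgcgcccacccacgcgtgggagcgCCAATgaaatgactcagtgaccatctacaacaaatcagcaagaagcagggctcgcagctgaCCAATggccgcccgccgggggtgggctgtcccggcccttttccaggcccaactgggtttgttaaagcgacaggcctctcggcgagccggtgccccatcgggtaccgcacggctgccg
TXNIP holds 1 spaced pair and 2 CCAAT boxes, and ARRDC4 holds 1 CACGTG, 3 CCAAT boxes and no spaced pair in this window. Of all 35116 promoter windows, 20 (0.057%) hold the spaced pair, 7.26% hold CACGTG and 34.6% hold a CCAAT box. A second TXNIP window, from another start, holds none of these motifs.

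**Figure D3:**
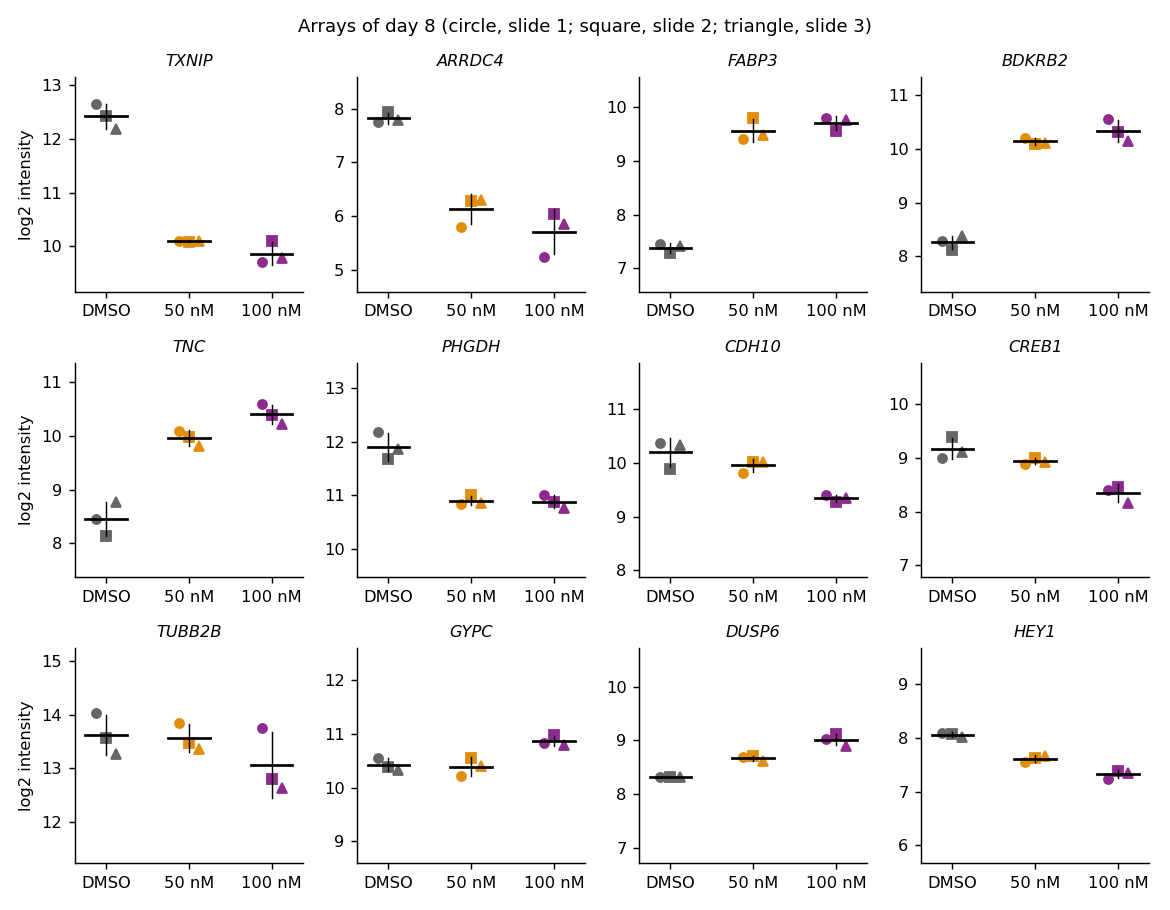
Normalized log2 intensity (y axis) of 12 genes on the 3 arrays of DMSO, 50 nM and 100 nM for 24 h on day 8, with symbols for slides, horizontal bars for means and vertical bars for the SD. Every panel spans 4 log2 units. TXNIP, FABP3 and PHGDH show levels at 50 nM close to those at 100 nM, while CDH10 and CREB1 lie lower at 100 nM on every slide.

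For all 8 genes with the largest rise the 95% interval of the difference between the doses included 0, and the difference was of either sign. Whether the arrays of the doses overlapped is given for single genes as a description and was not tested. FABP3, a cytosolic carrier of fatty acids, rose from 7.46, 7.28 and 7.42 in DMSO to 9.41, 9.81 and 9.48 at 50 nM and 9.81, 9.57 and 9.77 at 100 nM. The doses overlapped, and the difference was 0.15 (95% interval -0.23 to 0.54). BDKRB2, the bradykinin B2 receptor, rose by 1.88 at 50 nM and 2.08 at 100 nM, with a difference of 0.20 (interval -0.09 to 0.48). The matrix protein gene TNC read 8.46, 8.14 and 8.77 in DMSO, 10.09, 9.99 and 9.81 at 50 nM and 10.60, 10.39 and 10.22 at 100 nM. Here the dose groups did not overlap, and the difference was 0.44 with an interval from -0.20 to 1.08, so that a difference of more than 1.5-fold was within the error. ECEL1, a neuronal peptidase of the endothelin-converting family, did not overlap between doses either, with 11.95, 12.06 and 12.00 at 50 nM against 12.33, 12.47 and 12.40 at 100 nM (difference 0.39, interval -0.0005 to 0.79). For the skeletal actin gene ACTA1 the interval was wide, from -1.33 to 0.99 around -0.17. SNAI2, a repressor of epithelial genes, had the largest mean rise of 2.73, but 1 DMSO array read -0.47 and the others 5.48 and 5.13. The scanner software marked that spot as well above background, while its normalized median intensity was far below that of the other arrays. Without this array, DMSO replicate 3, the mean rise was 1.05 and SNAI2 was not called, nor was it with the processed signal and all arrays kept. ADIRF, a regulator of adipocyte formation, and the serine protease gene PRSS56 rose by 1.56 and 1.78 at 50 nM and differed by 0.14 and 0.09 between doses.

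Among the largest falls, the difference between doses was of either sign. SPMIP6, a sperm microtubule protein gene, fell at both doses (-2.08 and -1.99), and AMH, the anti-Mullerian hormone gene, fell at both doses (-1.81 and -1.66). The antisense transcript H1-10-AS1 fell at both doses (-1.84 and -1.94), with a difference whose interval ran from -0.33 to 0.13. The transcription cofactor gene LMO3, the polycomb-like gene SCML4 and the noncoding LINC01163 differed by -0.15, -0.30 and -0.26, with all 3 intervals spanning 0. CYTOR, a noncoding RNA, was well above background on no DMSO array and on all 6 rotenone arrays. With the main processing it was at least 1.675-fold higher at 50 nM and at least 1.89-fold higher at 100 nM. These folds are against the lowest well-measured signal of each DMSO array. Its level was low, with 4.55 at 50 nM and 4.60 at 100 nM on slide 1. Under 2 of 15 alternatives CYTOR was not called by the mean of both doses, and its mean rise was as low as 0.34.

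**Figure D4:**
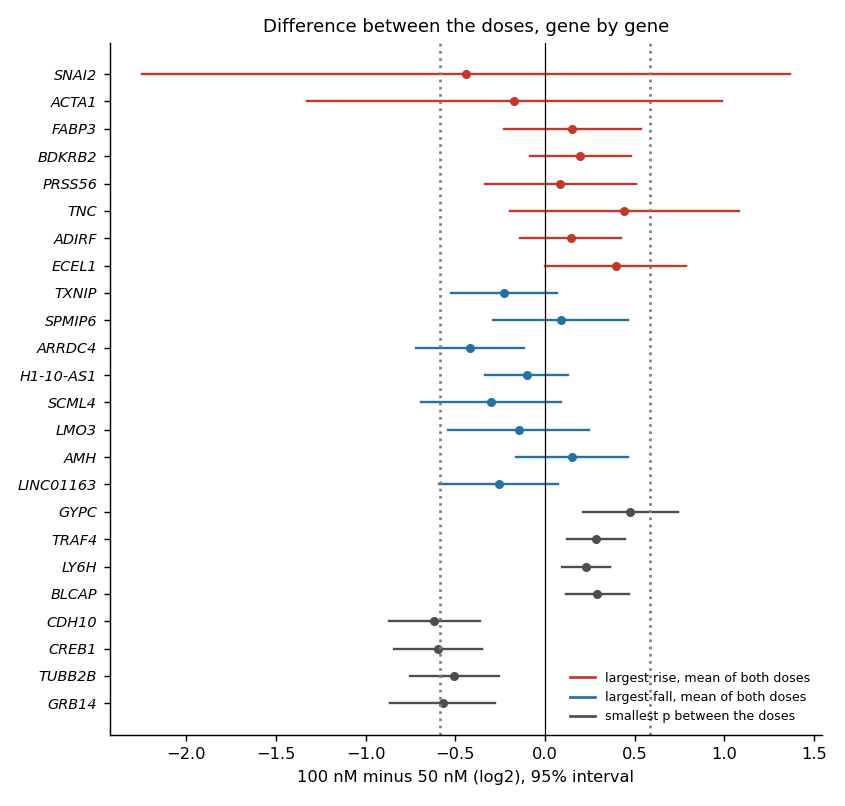
Difference of 100 nM minus 50 nM in log2 units (x axis) with its 95% interval for the 8 genes with the largest rise (red), the 8 with the largest fall (blue) and the 8 with the smallest unadjusted p between the doses (gray). Dotted lines mark a fold of 1.5. Of the 16 red and blue genes, the interval of ARRDC4 alone leaves out 0.

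The counts of class members called against DMSO stand here beside 1.38% of all genes up and 1.45% down at 50 nM, and 1.47% up and 1.96% down at 100 nM. Among 37 subunits of complex I, the target of rotenone, 0 were called at 50 nM and 1 at 100 nM, too few to set apart from the shares of all genes. That gene, NDUFV3, a small accessory subunit, read 11.25, 11.12 and 11.28 at 50 nM and 11.49, 11.35 and 11.45 at 100 nM, a difference of 0.22 (interval 0.04 to 0.39). For 36 of the 37 subunits, all above background, the interval lay within a fold of 1.5, beside 83.2% of the genes above background. Of 38 subunits of complexes II to V, 0 were called at either dose and 37 had such an interval. COX7A2 of cytochrome oxidase and UQCRFS1 and UQCRH of complex III had an unadjusted p under 0.05, with differences of -0.19, -0.14 and -0.15, and 0 of the list were higher with such a p, beside 1.88% and 2.12% of all genes. In glycolysis 4 of 30 genes rose at 50 nM and 2 at 100 nM. The phosphofructokinase gene PFKP rose by 0.72 and 0.64, and the aldolase gene ALDOC by 0.59 and 0.64. The lactate exporter gene SLC16A3 and the pyruvate dehydrogenase kinase gene PDK4 rose at 50 nM, by 0.73 and 0.94, and at 100 nM had changes of 0.43 and 0.53 that were not called. PDK4 also lost its call by the mean of both doses under 11 of the 15 alternatives run for it.

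Some members of the stress programs were called against DMSO, and 0 were called between the doses. Of 42 ATF4 targets and genes of the integrated stress response, 2 rose and 3 fell at 50 nM, beside 1.38% and 1.45% of all genes, and 2 rose and 3 fell at 100 nM, beside 1.47% and 1.96%. Of 19 cytosolic tRNA synthetases, which ATF4 also drives, 0 were called. GDF15, a stress-induced cytokine, rose by 1.06 and 0.92, and CEBPB, a bZIP factor, by 0.63 and 0.64. PHGDH, the first enzyme of serine synthesis, read 10.84, 11.00 and 10.85 at 50 nM and 11.00, 10.88 and 10.77 at 100 nM, and it fell at both doses (-1.0 and -1.02) from DMSO. ATF4 itself and DDIT3, which encodes the factor CHOP, differed by 0.0003 and 0.0009 between doses, with intervals from -0.20 to 0.20 and from -0.25 to 0.26. Of 25 NRF2 targets 3 rose at 50 nM and 2 at 100 nM: the heme oxygenase gene HMOX1 rose by 1.09 and 0.78, and BLVRB, a biliverdin reductase, by 0.87 and 0.66. PIR rose by 0.64 at 50 nM and had 0.35 at 100 nM. The gene of NRF2 itself, NFE2L2, was well above background on none of the 9 arrays. Of 28 heat shock genes 0 were called at either dose, with 25 of the intervals within a fold of 1.5, and of 30 p53 targets and apoptosis genes 1 rose at both, HRK, which encodes a BH3 protein that opposes BCL2, by 1.08 and 1.28. Of 13 genes of the metallothionein list MT2A rose by 0.81 and 0.59, while MTF1, the factor that drives metallothioneins, was the single member with an unadjusted p under 0.05, at -0.29. Of 21 HIF targets 1 rose at 50 nM and 2 at 100 nM, with ANKRD37 at 0.78 and 0.79 and the transferrin receptor gene TFRC at 0.59 at 100 nM and 0.39 at 50 nM.

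Cholesterol synthesis was the class with the highest median at both doses, 0.36 at 50 nM and 0.34 at 100 nM over 25 genes. Of these, 5 rose at 50 nM and 3 at 100 nM. The lanosterol synthase gene LSS read 10.09, 10.44 and 10.21 at 50 nM and 10.16, 10.16 and 10.41 at 100 nM, so that the doses overlapped, and it rose by 0.75 at each. FDFT1, the squalene synthase gene, rose by 0.71 and 0.67 and DHCR7, the last enzyme of the pathway, by 0.69 and 0.73. SREBF2, the factor that drives the pathway, was higher at 100 nM by 0.31, with an unadjusted p under 0.05. For 23 of the 24 genes of the class above background the interval lay within a fold of 1.5. Of 29 genes of fatty acid binding and oxidation 2 rose at each dose. Beside FABP3 these were FABP7, a fatty acid carrier of progenitors and glia, which rose by 0.68 at 50 nM and had 0.45 at 100 nM, and CPT1A, which brings fatty acids into mitochondria, which rose by 0.68 at 100 nM and had 0.52 at 50 nM.

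Of 31 genes of actin and its transcription factor SRF 3 rose and 1 fell at each dose, with 0 at an unadjusted p under 0.05 between the doses. Beside ACTA1 and ADIRF, FHL2, a LIM protein gene, rose by 0.70 and 0.79, and LCP1, an actin-bundling protein gene, fell at both doses (-1.14 and -1.05). Of 30 matricellular proteins and collagens 3 rose and 2 fell at each dose. Here TNC was joined by the thrombospondin genes THBS4, which rose by 1.13 and 1.1, and THBS2, which rose by 0.84 at 100 nM and had 0.62 at 50 nM. The collagen gene COL5A2 read 8.17, 8.11 and 8.40 at 50 nM and 7.67, 8.03 and 7.94 at 100 nM. These did not overlap, and COL5A2 fell at both doses (-0.79 and -1.13), with a difference of -0.34 (interval -0.59 to -0.09). COL5A1 rose by 0.66 at 50 nM and had 0.45 at 100 nM, and VCAN, the gene of the proteoglycan versican, fell at both doses (-0.78 and -0.70).

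**Figure D5:**
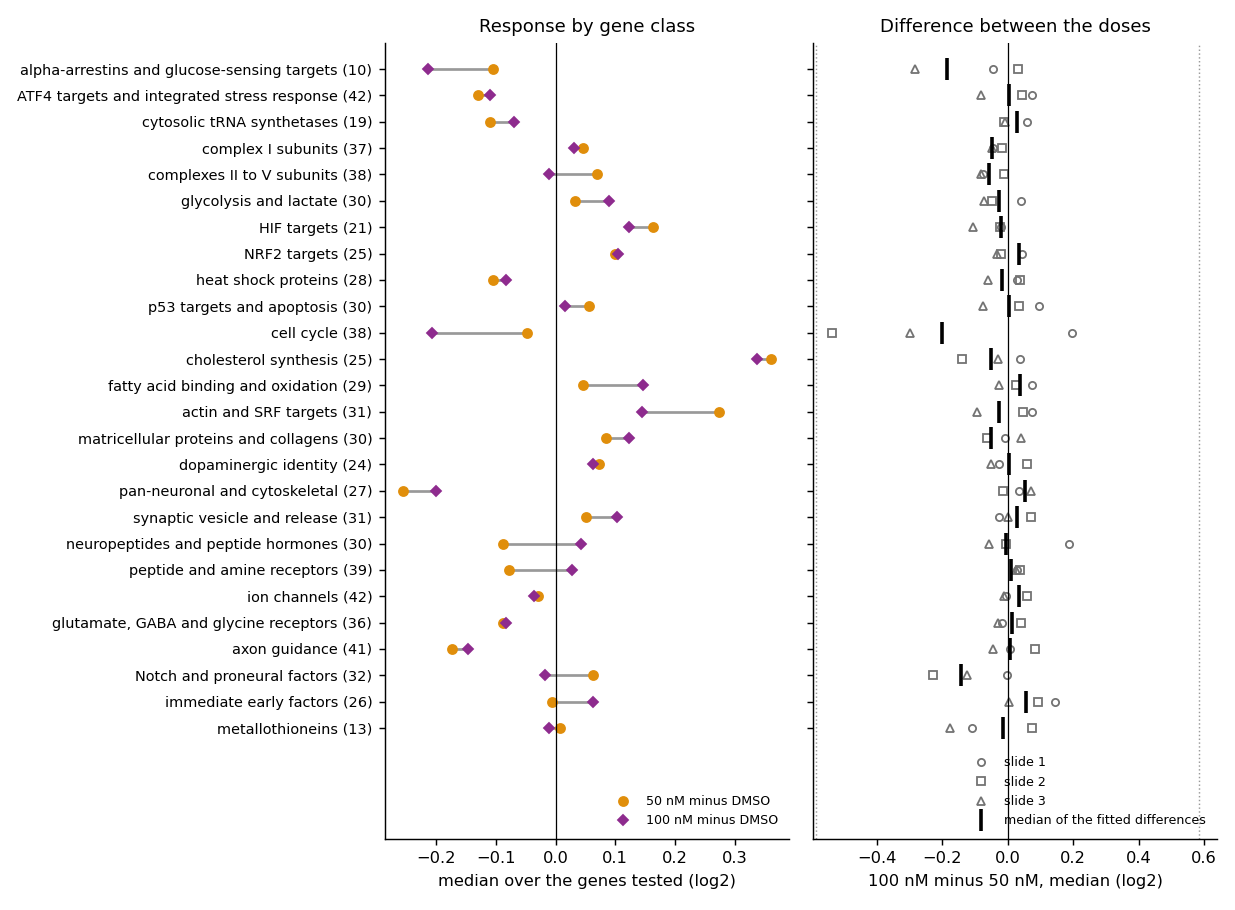
Left, median change of each gene class at 50 nM (circles) and 100 nM (diamonds) against DMSO in log2 units, with the number of genes tested in parentheses. Right, median difference of 100 nM minus 50 nM (black tick) with the median within each slide (open symbols), and dotted lines at a fold of 1.5. The cell cycle, the glucose-sensing targets and the Notch list have the lowest median differences, -0.20, -0.18 and -0.14.

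The classes of neuronal function differed in how closely the doses could be compared. The interval lay within a fold of 1.5 for 26 of 31 genes of synaptic vesicles and release, 22 of 27 pan-neuronal genes, 31 of 41 axon guidance genes and 27 of 42 ion channels. It did so for 12 of 24 genes of dopaminergic identity, 14 of 30 neuropeptides, 15 of 36 receptors for glutamate, GABA and glycine and 9 of 39 peptide and amine receptors, all lower shares than the 59.5% of all genes. Of the synaptic genes 0 were called at either dose. Of 24 genes of dopaminergic identity DLK1, a Notch-like surface protein gene, rose by 1.01 and 1.27. TH, which encodes the rate-limiting enzyme of dopamine synthesis, differed by 0.13 (interval -0.38 to 0.65) and SLC6A3 by -0.30 (interval -0.89 to 0.30). In the pan-neuronal list 2 of 27 genes fell at 50 nM and 0 at 100 nM: ELAVL4, a neuronal RNA-binding protein gene, fell by 0.70 at 50 nM and had -0.50 at 100 nM, and TUBB2A fell by 0.62 and had -0.54. Between the doses 2 pan-neuronal genes were higher and 2 lower at 100 nM with an unadjusted p under 0.05, beside 2.12% and 1.88% of all genes. Of the neuropeptide list, 14 of whose 30 genes were above background on all 9 arrays, 5 rose at each dose and 1 fell at 50 nM. Galanin (GAL) rose by 0.98 and 1.04, the C-type natriuretic peptide gene NPPC by 0.95 and 1.0 and the granin VGF by 0.60 and 0.68. ECEL1 was the fourth at both, and the fifth was PCSK1, a prohormone convertase, at 50 nM (0.69, with 0.32 at 100 nM) and the granin SCG2 at 100 nM (0.70, with 0.55 at 50 nM). Of 39 peptide and amine receptors 1 rose and 2 fell at 50 nM, and 1 rose and 3 fell at 100 nM. Beside BDKRB2, the serotonin receptor gene HTR5A fell at both doses (-1.1 and -1.42), the galanin receptor gene GALR1 did so too (-0.68 and -0.62), and the neuropeptide Y receptor gene NPY5R fell by 0.74 at 100 nM and had -0.54 at 50 nM. Of the receptors for glutamate, GABA and glycine GRM3 was called lower at 50 nM, but it was well above background on 1 of 3 arrays at each dose, so that no fold is given. Of 42 ion channel genes 3 were called at 50 nM and 5 at 100 nM, with 0 at an unadjusted p under 0.05 between the doses, and the potassium channel gene KCND2 fell at both doses (-0.85 and -0.84), while CACNG1, a calcium channel subunit gene, rose by 1.31 and 1.63. Of 41 axon guidance genes 1 rose and 2 fell at 50 nM, and 4 fell at 100 nM, where the netrin gene NTN1 fell at both doses (-0.83 and -1.05).

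The 2 classes with the most genes at an unadjusted p under 0.05 between the doses, the immediate early and the Notch list, each had them in 1 direction. Of 26 immediate early factors and their feedback regulators 6 had an unadjusted p under 0.05 between the doses, and all 6 were higher at 100 nM, beside 2.12% of all genes. EGR2 and FOS among them were well above background on 1 of the 6 rotenone arrays, so that no fold is given. DUSP4 and DUSP6, phosphatases that switch off ERK, were higher by 0.30 and 0.35, the ERK inhibitor gene SPRY4 by 0.26 and the AP-1 gene JUND by 0.36. DUSP6 read 8.31, 8.32 and 8.31 in DMSO, 8.69, 8.71 and 8.61 at 50 nM and 9.03, 9.12 and 8.90 at 100 nM. Its 3 groups thus did not overlap and lay in the order of dose, and it was called at 100 nM (0.70, adjusted p = 0.0011, limma) and not at 50 nM (0.35). These genes were picked out after their values were seen, and the adjusted p between the doses was at least 0.99963 for all of them. Under the 15 alternatives run for this list between 3 and 6 of its genes were higher at that p and 0 or 1 lower, with 3 higher without 100 nM replicate 1 and without 100 nM replicate 2.

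Of 32 Notch and proneural genes 5 had an unadjusted p under 0.05, all lower at 100 nM, beside 1.88% of all genes. Against DMSO, 3 of the list rose and 1 fell at 50 nM, and 1 rose and 3 fell at 100 nM. HEY1, a target of Notch, read 8.10, 8.07 and 8.02 in DMSO, 7.55, 7.63 and 7.67 at 50 nM and 7.24, 7.38 and 7.35 at 100 nM. The 3 groups did not overlap, and HEY1 fell by 0.74 at 100 nM and had -0.45 at 50 nM. The Notch target HES5 differed by -0.34, the ligand gene JAG1 by -0.50 and the bHLH gene NHLH2 by -0.24, and HEY2 was well above background on 2 of the 6 arrays. The count of 5 rested in part on single arrays: it was 1 without 50 nM replicate 2 or without 100 nM replicate 3, and 3 without 100 nM replicate 2. Over the 15 alternatives run for the list it ranged from 1 to 9, with 9 at an offset of 50. Of the 38 cell cycle genes 0 had such a p, and the replication gene MCM7 fell by 0.59 at 50 nM and had -0.35 at 100 nM. The list had the lowest median difference, -0.20, but on the slides it was 0.20, -0.54 and -0.30. Its members TYMS and TK1 differed by -0.26 and -0.30, with intervals from -1.05 to 0.54 and from -1.15 to 0.54, and CENPU, a centromere gene, by -0.18 (interval -0.53 to 0.17).

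Among genes above background on all 6 rotenone arrays, the smallest p between the doses for a lower level at 100 nM belonged to CDH10, which encodes a neuronal cadherin. It read 10.38, 9.88 and 10.33 in DMSO, 9.82, 10.02 and 10.02 at 50 nM and 9.40, 9.27 and 9.34 at 100 nM. The 50 nM arrays overlapped DMSO, whereas the 100 nM arrays lay below all others. The difference was -0.62 (95% interval -0.87 to -0.36, unadjusted p = 9.0e-05), and with limma CDH10 fell by 0.86 against DMSO at 100 nM (adjusted p = 0.000217) and had -0.24 at 50 nM (adjusted p = 0.276). CREB1, a transcription factor that answers to cAMP and calcium, followed with 8.90, 9.0 and 8.92 at 50 nM against 8.41, 8.47 and 8.16 at 100 nM. Its difference was -0.60 (interval -0.84 to -0.35, unadjusted p = 9.4e-05), again without overlap of the doses. For the neuronal tubulin gene TUBB2B, at 13.85, 13.48 and 13.36 against 13.76, 12.80 and 12.63, the groups overlapped through slide 1. The insulin receptor adaptor gene GRB14 had a difference of -0.57. On the other side GYPC, a membrane glycoprotein of red cells, was higher by 0.47, at 10.21, 10.56 and 10.40 against 10.82, 10.98 and 10.80, and TRAF4, BLCAP and LY6H by 0.28, 0.29 and 0.23. These 8 genes were listed by their p, which describes them and was not tested further, and the adjusted p of each was at least 0.99963. The largest differences among genes above background on all 6 arrays, looked up after the values were seen, were those of the scavenging chemokine receptor gene ACKR3, at -0.88, and of the helicase gene DDX54, at 0.80. ACKR3 read 7.21, 7.49 and 7.48 at 50 nM and 6.75, 6.53 and 6.27 at 100 nM, without overlap, while for DDX54 a single 50 nM array read 5.98 and the other 5 arrays between 8.01 and 8.60.

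The genes called at 1 dose alone with the smallest p between the doses were CDH10, CREB1 and the matrix gene ECM2 for 100 nM. ECM2 fell by 0.95 at 100 nM and had -0.31 at 50 nM, with 1 of its 100 nM arrays not well above background. For 50 nM they were CDK6, LYPD3 and FBXW9. The cyclin-dependent kinase gene CDK6 read 7.60, 7.71 and 7.66 in DMSO, 8.47, 8.89 and 8.28 at 50 nM and 8.09, 7.95 and 7.76 at 100 nM. It lay highest at 50 nM and the doses did not overlap, with a difference of -0.61 (interval -0.99 to -0.23). LYPD3, a surface protein gene with 1 of its 100 nM arrays not well above background, and FBXW9, an F-box gene, fell at 50 nM (-0.65 and -0.60) and were higher at 100 nM by 0.36 and 0.25. The 2 probes of LYPD3 differed between the doses in opposite directions, by -0.2847 and 0.9989. Of these probes 0 were above background on all 9 arrays, so that the direction for LYPD3 is not settled. Of the other genes listed by name, the surface glycoprotein gene CD200 fell at both doses (-0.85 and -0.80). TOP2B, the topoisomerase of neurons, read 12.10, 12.37 and 12.36 at 50 nM and 11.94, 12.17 and 12.30 at 100 nM, and had -0.41 and -0.54 against DMSO, short of the fold threshold. The glutamate transporter gene SLC1A1 was well above background on none of the 9 arrays, and CCK, the cholecystokinin gene, on 1 of 3 in each group, so that no fold is given for either.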

How the data were processed

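RNA of 24 day 8 and day 15 aggregate samples, 3 in each of 8 groups, had been hybridized by the authors to 1-color Agilent arrays, and the deposited scanner tables give the intensity of each spot and of its background. Feature Extraction was version 12.0.0.7 on slide 2 and 11.5.1.1 on slides 1 and 3. Samples were grouped by their titles. The deposited log2 table, which the authors had normalized and corrected for slide 1, was used as an alternative.

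Median intensities were background-corrected by normexp (offset 0) and quantile normalized in limma 3.58.1 (R 4.3.3). Control spots and flagged spots were left out, and a spot was kept if on 3 or more arrays it was brighter than the 95th percentile, times 1.1, of the 308 negative control spots. Of 50599 probes 30275 were named through their RefSeq accession (GRCh38.p14), and 29530 named probes of 21324 genes were kept and averaged per gene. All 24 arrays were fitted with slide as a block. The slide number is the replicate number: same-numbered samples deviated together in all 84 pairs of samples from different groups (lowest correlation 0.172, median 0.462). Adjusted p-values are Benjamini-Hochberg values over all genes, and a gene was called at a fold over 1.5 and an adjusted p under 0.05. The number of arrays limits the precision.

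Alternatives were ComBat or no batch correction, the processed signal, another offset, scaling and filter, the brightest probe, the deposited values, fewer arrays or slides, array weights and leaving out each array. The step test, the fit over all probes, the intervals over genes above background and the fit of slides 1 and 3 were added after the data were seen. Scripts were tested on simulated data. Members and gene lists were chosen with earlier results of these data known.

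Genes named are the 8 with the largest rise and the 8 with the largest fall by the mean of both doses, among called genes that the scanner software marked as well above background on all 9 arrays and whose DMSO and rotenone arrays did not overlap. They also include the 4 higher and 4 lower at 100 nM with the smallest p, the strongest member and the member with the smallest p of each list, genes well above background in rotenone alone, the 3 of each dose called at that dose only with the smallest p, and 20 genes listed by name. Other members of a list are given as those called at either dose. Some genes that this rule names are not reported here.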

Additional observations from a re-analysis of the deposited data

How the results depend on the processing

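The count of genes called between the doses was 0 under all alternatives but 1, with 0 to 1 when single arrays were left out (1 without 50 nM replicate 1, IL17F). With the slide as a replicate block 603 genes were called at 50 nM and 732 at 100 nM, and without the replicate block after ComBat correction of slide 1 599 and 738. In the order 50 nM, 100 nM, calls against DMSO numbered 334 and 412 with no batch correction, 338 and 398 with an offset of 50, 398 and 438 on slides 2 and 3, 139 and 359 on slides 1 and 3, and 0 and 0 when only the groups compared were fitted. By the mean of both doses 1017 genes (608 up, 409 down) were called with the processed signal, 338 with the offset of 50 and 421 on slides 1 and 3, beside 666 (308 up, 358 down). The processed signal moved the median of all genes at 100 nM from -0.02 to 0.10 and at 50 nM to 0.08. The share of genes with an interval within a fold of 1.5 was 59.5% with the slide as a replicate block. Over the alternatives it ranged from 42.3% with no batch correction to 97.3% with the offset of 50. The unadjusted count of 852 was 254 with no batch correction and 1711 with array weights. The step test called 104 genes, and 2 with no batch correction, 254 with the processed signal, 302 with the offset of 50, 164 with scaling to the 75th percentile, 255 when genes had to be above background in 1 of the 3 groups, 240 with array weights, and 0 with the 12 arrays of day 8, with the groups compared, on slides 2 and 3 and on slides 1 and 3. Leaving out single arrays gave 7 to 70. The median difference of the genes called up ranged from -0.0223 to 0.0381 with single arrays left out, the lowest being that without 50 nM replicate 2, and was -0.0157 with scaling to the 75th percentile, and that of the genes up at 12 h was 0.15 on slides 1 and 3. The median of the genes called down stayed between -0.12 and -0.03, and that of the genes down at 12 h between -0.12 and -0.04. The causes were not tested. Of the gene class medians 358 moved by less than the spread between slides and 32 by more, and 0 of the values above changed a called direction.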
